A study of Mus musculus with 28 samples.

Results

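Bone marrow-derived macrophages lacking Nrf2 were compared with wild-type macrophages in the solvent DMSO, without any activating compound. The mice were Nrf2 +/+ (WT) or Nrf2 -/- (KO), of strain C57BL/6 J and 12 weeks old, and their total bone marrow gave the cells. Both groups stood for 4 h in medium with 0.2% DMSO before RNA was isolated and hybridised to Affymetrix whole-genome mouse arrays. The members were chosen by their sample titles: 4 KO and 4 WT arrays, 8 of the 28 arrays of the series. A further 8 arrays held the same genotypes under RA839, a compound that binds Keap1 without a covalent bond. The other 12 held WT cells with siControl, siKeap1-1 or siKeap1-2, of which the last pair are siRNAs against Keap1. The series' design text calls the 4 arrays of a group biological replicates. The labels do not say whether they came from separate mice, which allele removed Nrf2, or whether KO and WT mice were littermates. The p-values therefore measure the spread between arrays, and this spread was estimated over all 16 arrays in DMSO or RA839. The loss of Nrf2 and any other difference between KO and WT mice cannot be told apart.

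Nrf2, the product of Nfe2l2, is a transcription factor that pairs with small Maf proteins on antioxidant response elements. Keap1 binds it and directs it to the Cul3 ubiquitin ligase and the proteasome, so that little Nrf2 remains in resting cells. Electrophiles and oxidants release it, and its targets make and recycle glutathione and thioredoxin, supply NADPH, handle haem and iron, and conjugate and export reactive compounds. The comparison in DMSO asks how much of this expression depends on Nrf2 when nothing has been added to release it.

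All values are the authors' RMA values on a log2 scale, on which a difference of 1 is 2-fold. They ran from 1.83 to 15.18 on the 8 arrays, and array medians lay between 5.65 and 5.71. Differences are KO minus WT, with the standard error after ±, n = 4 arrays per group, and p adjusted by the Benjamini-Hochberg method over 18193 genes in a limma fit of the 16 arrays in DMSO or RA839. A gene passed the test, and is said to have risen or fallen, at an adjusted p under 0.05. The number of arrays limits the precision. The median standard deviation between arrays was 0.168 in WT and 0.144 in KO. In a principal component analysis the first component (53.5% of the variance) separated the genotypes. The second (20.9%) separated KO arrays 1 and 2 (−23.4 and −27) from KO arrays 3 and 4 (23.2 and 20.7). It also set WT arrays 1 and 2 (6 and 20.8) apart from WT arrays 3 and 4 (−10.2 each), with the signs reversed. Between these KO pairs 508 genes differed by over 1, 423 of them higher on arrays 1 and 2. The 3′ minus 5′ value of the Actb control probe sets ranged from 1.68 to 1.98 in WT and from 1.28 to 1.43 in KO, without overlap. For Gapdh it ranged from 0.82 to 0.99 and from 0.77 to 0.84. Of these measures of RNA integrity and labelling, that of Actb separated the genotypes and that of Gapdh overlapped. Their part in the results was not tested.

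The macrophage label held on every array. The summed level of 9 macrophage markers ranged from 16.3 to 16.37 in WT and from 16.31 to 16.46 in KO. Such a sum follows the brightest markers. The array medians of these 9 markers did not overlap, at 11.29 to 11.79 in WT and 12.65 to 12.81 in KO. Among them the Fc receptor gene Fcgr1 rose by 1.98 ± 0.40 (adjusted p = 0.00213) and the endotoxin co-receptor gene Cd14 by 1.83 ± 0.14 (adjusted p = 3.02e-07), while the integrin gene Itgam fell by 1.04 ± 0.13 (adjusted p = 4.91e-05). The sums of 5 other marker lists did not overlap between the genotypes. For 12 neutrophil and precursor markers the sum was 13.49 to 13.64 in WT and 12.79 to 13.25 in KO. For 10 fibroblast and stromal markers it was 8.42 to 9.26 and 8.21 to 8.37, for 8 osteoclast markers 14.54 to 14.8 and 14.34 to 14.5, and for 4 adipocyte markers 6.78 to 7.02 and 6.62 to 6.7. For 5 eosinophil markers it was 11.06 to 11.34 and 10.91 to 11.02, which followed the bright Siglecf (−0.29 ± 0.10, adjusted p = 0.0384), whereas the dim Prg2 (1.11 ± 0.33, adjusted p = 0.0226) and Epx (0.49 ± 0.14, adjusted p = 0.0203) rose, and the list's median difference was 0.22. RMA values have no zero, so no marker can be called absent. The part of these cell types in the results was not tested, and fewer cells of a type cannot be told apart from less RNA per cell.

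Nfe2l2 itself was the largest fall. Its brighter probe set read 12.65, 12.48, 12.96 and 12.80 on the WT arrays and 3.36, 3.27, 3.46 and 3.52 on the KO arrays. Every KO array lay near the low end of the scale. The difference was −9.32 ± 0.14 (adjusted p = 1.88e-16), or −5.07 with the mean of its probe sets. A second probe set averaged 8.90 in WT and 8.08 in KO. Which part of the gene each probe set covers relative to the deletion was not tested. The labels of all 8 arrays held by this check. Keap1 read 10.25, 10.09, 10.40 and 10.43 in WT and 10.18, 10.32, 9.98 and 9.96 in KO. The genotypes overlapped, and the difference of −0.18 ± 0.10 missed the test (adjusted p = 0.199).

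Among 15 regulators and partners of Nrf2, 2 rose and 2 fell, Nfe2l2 included. Over all genes 11.2% rose and 13.8% fell, so these counts are near the background. Maff, a small Maf partner, fell by 0.87 ± 0.17 (adjusted p = 0.00148). Nfe2l1, the related factor Nrf1 that governs proteasome genes, rose by 0.68 ± 0.14 (adjusted p = 0.00223), though without KO arrays 3 and 4 its adjusted p was 0.0505. Rbx1, the RING subunit of the Cul3 ligase, rose by 0.38 ± 0.11 (adjusted p = 0.022) by a dim probe set (4.88 in WT and 5.26 in KO). That call was lost without WT array 1 or 4 or KO array 3 or 4 (adjusted p up to 0.27, with both of the latter left out).

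Across the genome 2043 genes were higher (11.2%) and 2518 lower (13.8%) in KO, 25.1% of the 18193 tested. These shares are the background for the list counts below. Risen genes were 44.8% of those changed, but 55.2% when only the brighter genes were tested (1525 higher and 1238 lower) and 51.9% after quantile normalization of the arrays (2365 and 2189). Large changes leaned to falls: 429 genes (2.36%) fell and 161 (0.885%) rose at least 2-fold. For 5375 genes (29.5%) the 4 KO arrays did not overlap the 4 WT arrays, with KO below for 2818 (15.5%) and above for 2557 (14.1%). The median difference over all genes was −0.02.

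**Figure D1:**
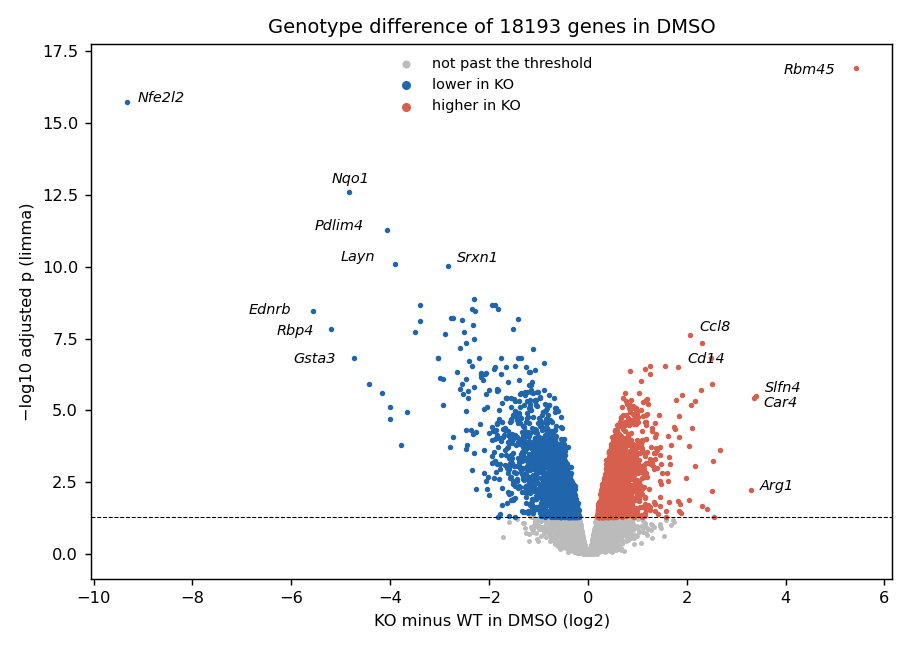
Each of the 18193 genes is a point at its difference KO minus WT in DMSO (log2, horizontal axis) and its −log10 adjusted p from limma (vertical axis). Blue points fell (2518 genes), red points rose (2043 genes), grey points did not pass the threshold of 0.05 marked by the dashed line; Nfe2l2 at −9.32 and Rbm45 at 5.43 stand farthest out.

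The core target list held genes known as Nrf2 targets. It was chosen with earlier results of these data known, so its counts are a description and not an independent test. Of its 28 measured members 26 fell and 0 rose, against 13.8% and 11.2% of all genes. Their median difference was −1.44, and all 28 were lower on each KO array than on each WT array, against 15.5% of all genes. Nqo1, which reduces quinones with NADPH and is a standard readout of Nrf2 activity, read 11.87, 11.84, 11.63 and 11.90 in WT and 6.98, 7.25, 6.92 and 6.79 in KO. The groups stood over 4 units apart, and the difference was −4.83 ± 0.12 (adjusted p = 2.5e-13). Srxn1, sulfiredoxin, which reactivates oxidised peroxiredoxins, read 13.17, 13.03, 13.33 and 13.24 against 10.52, 10.39, 10.23 and 10.29. It fell by 2.83 ± 0.11 (adjusted p = 9.3e-11) from one of the higher levels among the targets. Me1, malic enzyme, which yields NADPH, read 7.78, 7.59, 7.73 and 7.94 in WT and 5.39, 4.79, 4.97 and 4.95 in KO, a difference of −2.73 ± 0.14 (adjusted p = 5.98e-09).

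**Figure D2:**
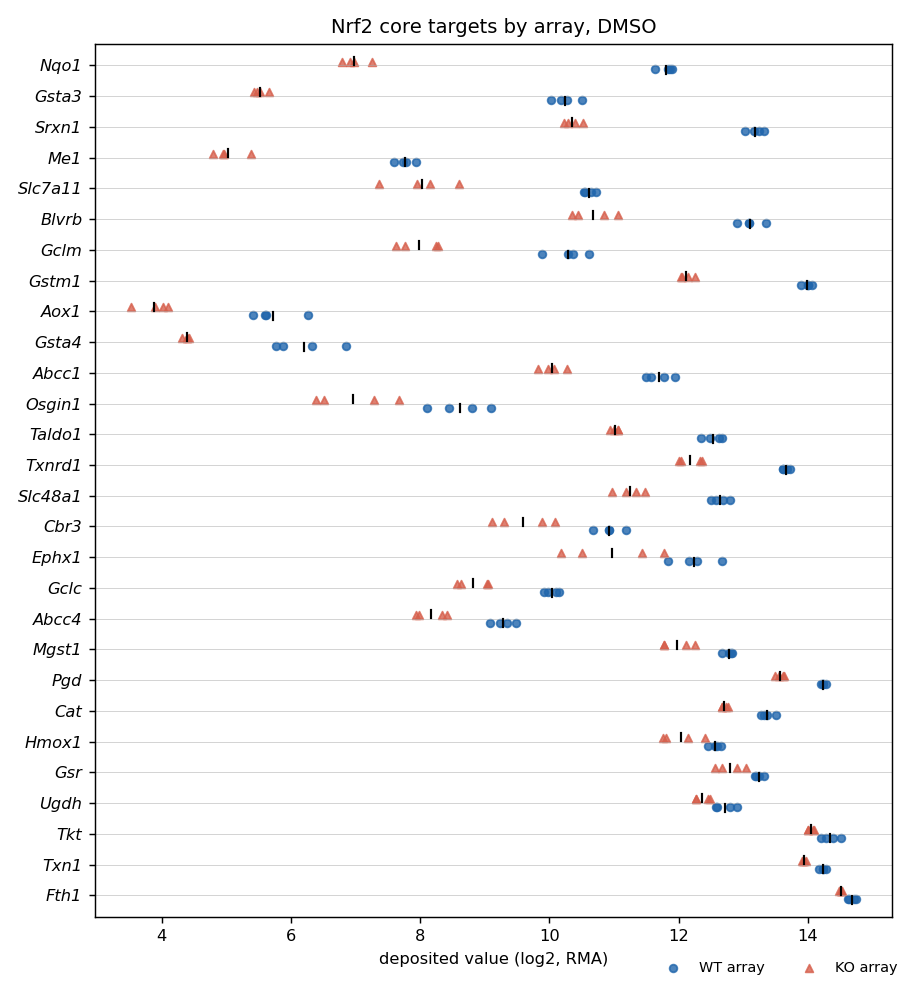
The 28 measured core targets of Nrf2 are shown with 1 point per array (blue circles WT, red triangles KO, 4 each) at the deposited log2 value, and a black tick at each group's mean. Genes are ordered from the largest fall (Nqo1, −4.83) to the smallest (Fth1, −0.17), and for every gene the KO points lie to the left of the WT points.

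The sequences below show where letters that match the core of the antioxidant response element stand in promoters of some genes that fell. The same letters also stood in promoters of genes that rose, such as Mex3b, Stard13 and Tnfrsf9, and of the unchanged Mtx2, which are not printed. The letters searched were TGACNNNGC on either strand, which reads GCNNNGTCA on the opposite one, in RefSeq promoters of build GRCm38.p6 that run from 250 bases before to 50 after a gene's start. Matches are in capitals and all sequences run 5′ to 3′ along the gene. For the glutathione synthesis gene Gclm (chr3:122245307-122245556, plus strand) and the glutathione S-transferase gene Gsta3 (chr1:21240335-21240584, plus strand) the 250 bases before the start are printed, since both promoters hold a match well upstream.
Gclm: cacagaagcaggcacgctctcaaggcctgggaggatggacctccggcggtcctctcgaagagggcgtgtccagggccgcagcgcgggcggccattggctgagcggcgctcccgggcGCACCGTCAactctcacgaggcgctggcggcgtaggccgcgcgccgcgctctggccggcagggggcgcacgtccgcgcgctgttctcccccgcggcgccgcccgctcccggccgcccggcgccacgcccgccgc
Gsta3: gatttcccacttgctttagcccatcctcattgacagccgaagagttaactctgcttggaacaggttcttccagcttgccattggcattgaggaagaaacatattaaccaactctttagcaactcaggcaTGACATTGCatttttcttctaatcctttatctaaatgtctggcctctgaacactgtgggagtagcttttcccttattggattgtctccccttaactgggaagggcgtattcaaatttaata

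For other genes that fell, the match is printed with 10 bases on either side. They are Me1 (chr9:86695902-86695930, minus strand), Srxn1 (chr2:152105542-152105570, plus), Txnrd1 (chr10:82859104-82859132, plus), Mgst1 (chr6:138140461-138140489, plus), Pgd (chr4:149166061-149166089, minus), Maff (chr15:79346499-79346527, plus), Lrp8 (chr4:107802840-107802868, plus) and Ceacam10 (chr7:24777104-24777132, plus). Abcc4 had a match in each of 2 promoters (chr14:118706226-118706254 and chr14:118676936-118676964, minus).
Me1: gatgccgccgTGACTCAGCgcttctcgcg
Srxn1: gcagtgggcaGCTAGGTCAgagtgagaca
Txnrd1: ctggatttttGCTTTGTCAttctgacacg
Mgst1: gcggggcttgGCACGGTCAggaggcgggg
Pgd: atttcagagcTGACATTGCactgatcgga
Maff: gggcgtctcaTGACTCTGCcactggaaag
Lrp8: cagtcttttcTGACAATGCgtttccgggg
Ceacam10: caggagaacaGCATTGTCAgactcacagg
Abcc4: gccccgagagGCGGGGTCAgggcgggccg
Abcc4: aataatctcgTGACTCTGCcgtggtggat

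The motif was found in 9 of the 22 core targets with a promoter in the table (40.9% of genes, 32.3% of promoters). In all promoters of that length the share was 12.4%, and for tested genes it was 16.2% of genes. Of the 348 genes with a promoter that fell at least 2-fold, 72 held it (20.7%), and of the 124 that rose at least 2-fold, 20 did (16.1%). Matches on the opposite strands overlapped in 9 promoters of the table. A match describes these letters in this window and is not a binding site.

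Glutathione is made from cystine taken up by Slc7a11, in steps catalysed by Gclc with its modifier Gclm and then by Gss. Of 13 measured genes of glutathione synthesis and recycling 6 fell and 0 rose, with a median of −0.40. Slc7a11 read 10.53, 10.73, 10.64 and 10.56 in WT and 7.37, 7.96, 8.15 and 8.60 in KO. WT arrays were tightly grouped and KO arrays spread over more than 1 unit, with a difference of −2.59 ± 0.23 (adjusted p = 1.85e-06). Gclm read 10.29, 10.62, 9.88 and 10.36 against 7.63, 7.76, 8.24 and 8.28, a fall of 2.31 ± 0.20 (adjusted p = 1.56e-06). Gclc read 9.98, 10.15, 10.11 and 9.92 against 8.63, 8.57, 9.03 and 9.05, a fall of 1.22 ± 0.14 (adjusted p = 1.77e-05). Gss, glutathione synthetase, fell by 1.55 ± 0.16 (adjusted p = 7.45e-06).

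Gsr, which reduces oxidised glutathione, fell by 0.44 ± 0.12 (adjusted p = 0.0131), and without KO arrays 3 and 4 the difference was −0.27 (adjusted p = 0.187). Its second probe set gave −1.56. Gpx4, which reduces lipid peroxides, fell by 0.37 ± 0.09 (adjusted p = 0.0085), a call also lost without KO arrays 3 and 4 (adjusted p = 0.12). The 7 members that missed the test had differences of −0.98 (Chac1, which breaks glutathione down), −0.40 (Oplah), −0.13 (Ggct), −0.13 (Gpx1), −0.12 (Slc3a2, the partner chain of Slc7a11), 0.07 (Chac2) and 0.19 (Glrx). Chac1 passed in 7 settings (adjusted p at most 0.0479 over the 7), among them without KO array 3 (adjusted p = 0.0316) or KO array 4 (adjusted p = 0.0322).

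In the thioredoxin and peroxiredoxin system 5 of 12 fell and 0 rose (median −0.28). Txnrd1, the cytosolic thioredoxin reductase, read 13.68, 13.72, 13.62 and 13.61 in WT and 12.00, 12.04, 12.33 and 12.37 in KO. It fell by 1.47 ± 0.11 (adjusted p = 2.82e-07), and its dimmer probe sets gave −2.41 and −2.65. Besides Srxn1 the list held falls of Txnrd3 (−1.01 ± 0.16, adjusted p = 0.000417, and −0.65 with the mean of its probe sets), the mitochondrial peroxiredoxin gene Prdx3 (−0.40 ± 0.09, adjusted p = 0.00378) and Txn1, thioredoxin (−0.30 ± 0.07, adjusted p = 0.0037). With the mean of all its probe sets Txn1 no longer passed (adjusted p = 0.378). Among 11 catalases, dismutases and peroxidases 3 fell. Catalase (Cat) fell by 0.66 ± 0.10 (adjusted p = 0.000215) by its brightest probe set and by 2.08 by the other. Gpx2 fell by 0.36 ± 0.11 (adjusted p = 0.0261), and lost the call without WT array 1 or 4 or KO array 1 or 3 (adjusted p up to 0.0858). With KO arrays 1 and 2 both left out its adjusted p was 0.145.

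Conjugating and detoxifying enzymes gave the highest shares after the core list, which shares members with them by construction. Of 21 glutathione S-transferases 12 fell (57.1%) and 3 rose (14.3%), with a median of −0.62. Gsta3 read 10.18, 10.03, 10.28 and 10.51 in WT and 5.66, 5.43, 5.53 and 5.47 in KO, far apart and with little spread within KO (−4.72 ± 0.33, adjusted p = 1.49e-07). Gstm2 fell by 2.47 ± 0.16 (adjusted p = 4.51e-08), Gsta2 by 1.93 ± 0.31 (adjusted p = 0.000367) and Gstm1 by 1.87 ± 0.09 (adjusted p = 2.12e-09). These genes form families of similar sequence, and whether probe sets read more than one member was not tested. Of 19 enzymes for quinones, carbonyls and epoxides 15 fell (78.9%) and 0 rose. After Nqo1 the largest falls were those of the soluble epoxide hydrolase gene Ephx2 (−2.17 ± 0.17, adjusted p = 5.53e-07), the aldehyde oxidase gene Aox1 (−1.84 ± 0.24, adjusted p = 7.01e-05) and the aldo-keto reductase gene Akr1b8 (−1.83 ± 0.16, adjusted p = 2.03e-06). Ephx1, microsomal epoxide hydrolase, read 12.16, 11.83, 12.29 and 12.67 in WT and 11.78, 11.43, 10.18 and 10.51 in KO. KO arrays 1 and 2 lay close to WT and arrays 3 and 4 far below. Its fall of 1.26 ± 0.35 (adjusted p = 0.0167) did not pass without WT array 4 or KO array 3 or 4, and the difference was −0.63 without both of the latter (adjusted p = 0.243).

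Of 12 measured enzymes of NADPH supply 4 fell and 0 rose, and the core list also holds all 4: Me1 as above, the transaldolase gene Taldo1 (−1.51 ± 0.09, adjusted p = 1.5e-08), the phosphogluconate dehydrogenase gene Pgd (−0.66 ± 0.07, adjusted p = 1.12e-05, and up to −1.04 by another probe set) and the transketolase gene Tkt (−0.31 ± 0.08, adjusted p = 0.00816, which rose to 0.0809 without KO arrays 1 and 2, and −0.49 and −0.75 by its other probe sets). The other 8 missed the test, and the median of the list was −0.09. For the export pumps 3 of 9 fell, namely Abcc1 (−1.65 ± 0.12, adjusted p = 3.21e-07) and Abcc4 (−1.11 ± 0.14, adjusted p = 5.23e-05), which export glutathione conjugates and other anions, and the multidrug pump gene Abcb1a (−0.74 ± 0.13, adjusted p = 0.000655).

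Haem and iron genes included some of the largest falls of a bright transcript. Of 18 measured genes 8 fell (44.4%) and 0 rose. Slc40a1, ferroportin, the iron exporter of macrophages, read 12.90, 12.43, 12.71 and 12.25 in WT and 10.57, 10.57, 9.25 and 9.0 in KO. All KO arrays were lower, with arrays 3 and 4 the lowest, and the difference was −2.72 ± 0.36 (adjusted p = 8.52e-05). Blvrb, a biliverdin reductase, fell by 2.43 ± 0.22 (adjusted p = 2.13e-06), Slc11a1, the phagosomal metal transporter Nramp1, by 2.31 ± 0.14 (adjusted p = 3.25e-08), and Slc48a1, a haem transporter, by 1.40 ± 0.14 (adjusted p = 4.83e-06). Hmox1, haem oxygenase 1, read 12.65, 12.56, 12.60 and 12.45 in WT and 11.81, 11.76, 12.15 and 12.41 in KO. Its arrays did not overlap, but KO array 4 came within 0.1 of WT, and the difference of −0.53 ± 0.21 missed the test (adjusted p = 0.0737). It passed in 5 settings, among them the 8 DMSO arrays alone (adjusted p = 0.0264) and without KO array 4 (adjusted p = 0.0442). Fth1, the ferritin heavy chain gene, was near the top of the scale in both genotypes (14.68 and 14.51). Its fall of 0.17 ± 0.06 lay at the threshold (adjusted p = 0.0499). The call was lost in 15 settings, among them without any 1 of the 8 arrays (adjusted p up to 0.111). Others were quantile normalization (adjusted p = 0.141) and arrays centred on the median (adjusted p = 0.196).

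Other core targets also fell. Osgin1, an oxidative stress-induced growth inhibitor, fell by 1.65 ± 0.30 (adjusted p = 0.000973), and the differences were −1.82 ± 0.27 for Gsta4 (adjusted p = 0.00018), −1.33 ± 0.22 for the carbonyl reductase gene Cbr3 (adjusted p = 0.000452) and −0.80 ± 0.12 for the microsomal transferase gene Mgst1 (adjusted p = 0.000282). Ugdh, which makes the sugar donor for glucuronidation, ranged from 12.58 to 12.91 in WT and from 12.27 to 12.48 in KO. It missed the test (−0.35 ± 0.13, adjusted p = 0.0544), but passed in 7 settings, among them the 8 DMSO arrays alone (adjusted p at most 0.0451).

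The largest falls after Nfe2l2 were mostly of genes outside these lists. Ednrb, the endothelin B receptor gene, read 10.05, 10.48, 9.66 and 8.83 in WT and 4.59, 4.6, 3.76 and 3.86 in KO. The difference was −5.56 ± 0.28 (adjusted p = 3.44e-09), and with the mean of its probe sets, of which the others were dim, it was −2.47. Rbp4, the carrier of retinol, read 11.37, 10.44, 11.39 and 10.64 against 5.89, 6.32, 5.08 and 5.78 (−5.19 ± 0.30, adjusted p = 1.5e-08). Cck, the peptide hormone cholecystokinin, read 10.74, 10.64, 9.58 and 9.17 against 6.09, 5.94, 5.39 and 4.99 (−4.43 ± 0.38, adjusted p = 1.25e-06). For each of these genes the lowest WT array lay over 3 units above the highest KO array.

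Cdkn1c, the cell cycle inhibitor p57, fell by 4.16 ± 0.38 (adjusted p = 2.5e-06), and the cytoskeletal adaptor gene Pdlim4 differed by −4.07 ± 0.12 (adjusted p = 5.51e-12). Cyp1b1, a cytochrome P450 that oxidises aromatic compounds, read 12.10, 12.13, 12.25 and 11.66 in WT and 8.61, 9.14, 7.26 and 7.14 in KO. Its KO arrays 1 and 2 stood above arrays 3 and 4, and the difference was −4.00 ± 0.41 (adjusted p = 7.45e-06). Layn, a hyaluronan receptor gene, fell by 3.90 ± 0.14 (adjusted p = 8.39e-11) and Ceacam10, of a family of adhesion molecules, by 3.78 ± 0.54 (adjusted p = 0.000155). A dim probe set of Ceacam10 gave 0.23, so the mean of its probe sets was −2.47. Mpzl2, a cell adhesion gene, read 7.83, 7.39, 7.97 and 7.27 against 3.40, 5.2, 2.98 and 2.86, with KO array 2 well above the other KO arrays. The difference was −4.01 ± 0.46 (adjusted p = 1.99e-05), against −0.87 by the dimmest of its probe sets. Il1f9, the cytokine IL-36γ, fell by 3.66 ± 0.39 (adjusted p = 1.15e-05), Lrp8, a receptor for apolipoprotein E and reelin, by 3.50 ± 0.21 (adjusted p = 1.84e-08), and Atp8b1, a phospholipid flippase gene, by 3.40 ± 0.19 (adjusted p = 8.12e-09).

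The largest rise was that of Rbm45, an RNA-binding protein gene, which read 6.69, 6.74, 6.65 and 6.67 in WT and 12.08, 12.14, 12.15 and 12.08 in KO. Neither group spread by more than 0.1, and the difference was 5.43 ± 0.07 (adjusted p = 1.31e-17). Rbm45 is the eighth measured gene after Nfe2l2 along the chromosome in the RefSeq order. Of the 5 measured genes on either side of Nfe2l2, 0 rose and 2 fell: Hoxd3 (−0.50 ± 0.14, adjusted p = 0.0176, from the low values of 3.65 in WT and 3.15 in KO, and lost without WT array 2 or KO array 4 at an adjusted p of up to 0.167 over the settings that ended it) and a gene with only a clone name (−1.45 ± 0.21, adjusted p = 0.000157). Within 15 genes on either side 7 rose and 4 fell (36.7%), and within 50 the share was 25%, against 25.1% of all genes. For genes beside the locus, the chromosome segment that carries the knockout and the loss of Nrf2 cannot be told apart.

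Slfn4, a Schlafen gene of myeloid cells, read 8.60, 7.74, 8.89 and 9.18 in WT and 12.26, 12.37, 11.60 and 11.77 in KO (3.40 ± 0.32, adjusted p = 3.04e-06). Car4, carbonic anhydrase 4, read 5.30, 5.40, 6.23 and 5.70 against 9.10, 9.49, 8.41 and 9.08 (3.36 ± 0.32, adjusted p = 3.67e-06). Arg1, arginase 1, which breaks arginine down and marks alternative activation, read 4.86, 4.33, 7.47 and 4.81 in WT and 9.32, 9.87, 7.63 and 7.82 in KO. WT array 3 came close to KO arrays 3 and 4, and the rise of 3.29 ± 0.77 (adjusted p = 0.00556) was 2.36 without KO arrays 1 and 2 (adjusted p = 0.0831). Apoe, the apolipoprotein that carries lipid out of macrophages, read 11.06, 9.44, 12.65 and 12.47 in WT and 13.85, 13.82, 14 and 13.58 in KO. The WT arrays spread over more than 3 units, and the rise of 2.41 ± 0.74 (adjusted p = 0.0271) lost the call without WT array 1 or 2 or KO array 1, 2 or 3, at an adjusted p of up to 0.106 over the settings that ended it, with values between 1.76 and 2.83.

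**Figure D3:**
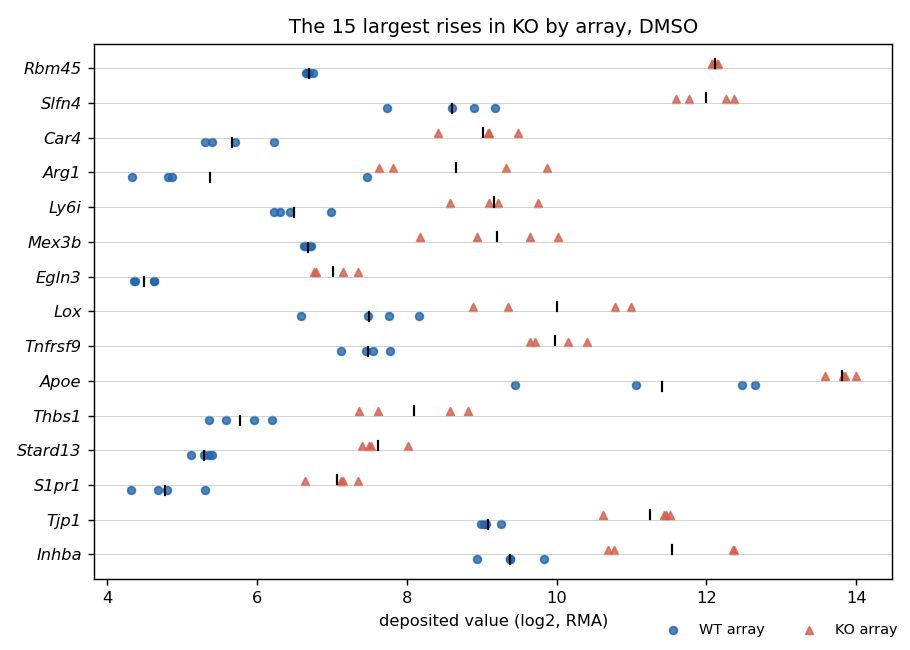
The 15 largest rises in KO are shown with 1 point per array (blue circles WT, red triangles KO, 4 each) at the deposited log2 value, with a black tick at each group's mean. Rbm45 shows 2 tight clusters (6.65 to 6.74 and 12.08 to 12.15), whereas Arg1, Lox and Thbs1 split into KO arrays 1 and 2 above KO arrays 3 and 4 and Inhba into the reverse.

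Egln3, a prolyl hydroxylase that marks HIF for degradation, rose by 2.52 ± 0.21 (adjusted p = 1.18e-06), and so did Mex3b, an RNA-binding ubiquitin ligase gene (2.52 ± 0.43, adjusted p = 0.000561). Tnfrsf9, the costimulatory receptor 4-1BB, rose by 2.50 ± 0.17 (adjusted p = 1.49e-07), Ly6i, a Ly-6 surface protein gene, by 2.67 ± 0.40 (adjusted p = 0.000244), Stard13 by 2.32 ± 0.15 (adjusted p = 4.51e-08), the sphingosine phosphate receptor gene S1pr1 by 2.30 ± 0.21 (adjusted p = 1.97e-06) and the tight junction gene Tjp1 by 2.17 ± 0.21 (adjusted p = 4.55e-06). Inhba, a subunit of activin, rose by 2.16 ± 0.39 (adjusted p = 0.000872), by 1.34 without KO arrays 3 and 4, and by 1.14 with the mean of its probe sets, of which the dimmer gave 0.12. Lox, which cross-links collagen, rose by 2.50 ± 0.59 (adjusted p = 0.00634) and by 1.62 without KO arrays 1 and 2 (adjusted p = 0.103), and with the mean of its probe sets the value was 1.43. Thbs1, the matrix glycoprotein thrombospondin 1, rose by 2.32 ± 0.68 (adjusted p = 0.0213) and lost the call without WT array 2 or KO array 1 or 2 (adjusted p up to 0.175 over the settings that ended it). Its dimmer probe set gave 0.07.

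Immune genes moved in both directions. Of 12 CC chemokines 3 rose (25%, against 11.2% of all genes) and 0 fell. Ccl8, a monocyte attractant, read 11.28, 10.98, 11.15 and 11.52 in WT and 13.29, 13.29, 13.30 and 13.31 in KO, with almost no spread in KO (2.06 ± 0.12, adjusted p = 2.37e-08). Ccl12 rose by 1.21 ± 0.24 (adjusted p = 0.00196) and by 0.765 without KO arrays 1 and 2. Ccl7 rose by 1.36 ± 0.39 (adjusted p = 0.0179) with overlapping arrays. It did not pass without WT array 3 or 4 or KO array 3 or 4 (adjusted p up to 0.062). With KO arrays 3 and 4 both left out its adjusted p was 0.213. Of 12 CXC chemokines 1 fell, the neutrophil attractant gene Cxcl3 (−2.04 ± 0.47, adjusted p = 0.00539, and 0.0607 without KO arrays 3 and 4). Among 20 inflammatory cytokines and mediators 1 rose and 2 fell. They were Osm (0.44 ± 0.14), the macrophage growth factor gene Csf1 (−1.13 ± 0.35) and Il12b (−0.34 ± 0.09), and each call was lost in at least 1 setting, with the highest adjusted p there at 0.208, 0.332 and 0.0804. For Osm these settings included leaving out WT array 1, 3 or 4 or KO array 3, for Csf1 WT array 1, 2 or 4 or KO array 1 or 2, and for Il12b KO arrays 1 and 2 together. Other probe sets gave −1.28 for Il12b and −0.80 to −1.85 for Csf1, and without KO arrays 1 and 2 the Csf1 difference was −0.53.

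Of 13 Toll-like receptor genes and co-receptors 3 rose and 3 fell (23.1% each, against 11.2% and 13.8% of all genes). Cd14 read 10.89, 10.84, 10.98 and 11.29 in WT and 12.80, 12.77, 12.89 and 12.86 in KO, with no overlap. Tlr4, the endotoxin receptor gene, rose by 0.53 ± 0.12 (adjusted p = 0.00599), whereas Tlr13 fell by 0.76 ± 0.10 (adjusted p = 7.39e-05) and Tlr6 by 0.56 ± 0.09 (adjusted p = 0.000445). Of 20 scavenger and phagocytic receptors 1 rose (Fcgr1) and 3 fell. Besides Itgam these were Cd36, which takes up oxidised lipoprotein (−0.96 ± 0.09, adjusted p = 3.42e-06), and the mannose receptor gene Mrc1 (−0.42 ± 0.10, adjusted p = 0.00457). Of 15 genes of alternative activation and arginine metabolism 5 rose (33.3%) and 2 fell. After Arg1 the rises included the arginine transporter gene Slc7a2 (1.21 ± 0.12, adjusted p = 3.95e-06), the lectin gene Mgl2 (0.99 ± 0.17, adjusted p = 0.000776) and Arg2 (0.84 ± 0.20, adjusted p = 0.00656, and 0.0544 without KO arrays 1 and 2). The median of that list was 0.00. Of 10 genes of antigen presentation and costimulation, Cd86 rose (1.16 ± 0.19, adjusted p = 0.000387) and Cd80 fell (−0.52 ± 0.09, adjusted p = 0.000781).

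Interferon-stimulated genes differed within each genotype. Their median difference was 0.58, but 1 of 21 rose and 1 fell. Ifit1 read 8.15, 6.96, 9.45 and 8.81 in WT and 10.51, 10.96, 8.09 and 8.08 in KO, and Oasl2 9.80, 8.56, 10.56 and 10.62 against 11.65, 11.91, 10.39 and 10.43. In both, KO arrays 1 and 2 were the highest of the 8 and KO arrays 3 and 4 lay among the WT arrays. Within WT, arrays 1 and 2 lay below arrays 3 and 4 for both genes. On KO arrays 1 and 2, 9 of the 21 genes were over 1 higher than on arrays 3 and 4, against 423 of all 18193 genes. Irf7, a regulator of interferon genes, read 7.86, 7.18, 8.78 and 8.95 against 10.65, 10.90, 9.40 and 9.28 (1.86 ± 0.53, adjusted p = 0.0183). That call was lost without WT array 2, KO array 1 or KO array 2, and without both of the latter the rise was 1.15 (adjusted p = 0.21). Gbp3, a guanylate-binding protein gene, fell by 0.75 ± 0.23 (adjusted p = 0.0251), a call lost without WT array 1 or 3 or KO array 3 or 4. With both of these KO arrays left out the difference was −0.29 (adjusted p = 0.361). Ifit1 and Oasl2 are given after their values were seen.

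**Figure D4:**
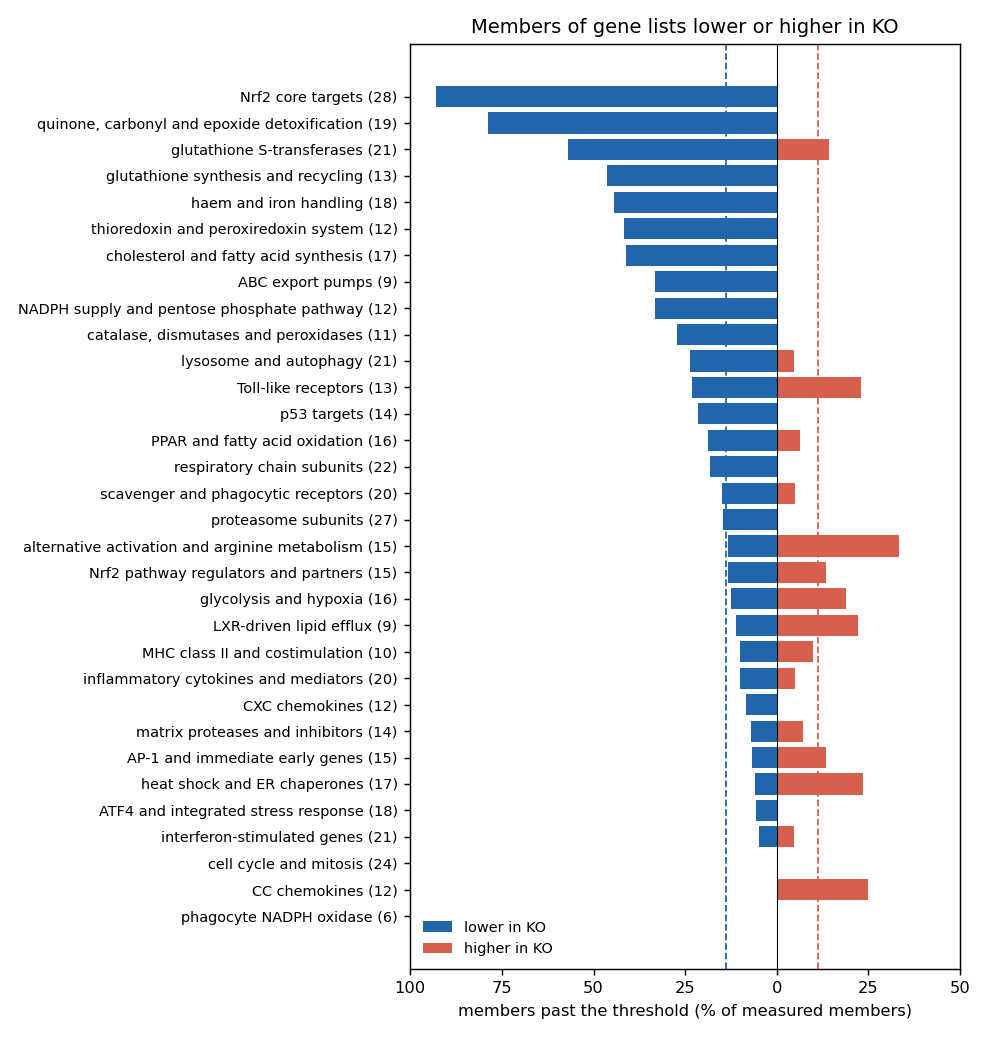
For each of 32 gene lists, with the number of measured members in brackets, the bar to the left gives the share of members that fell in KO and the bar to the right the share that rose (percent of measured members, limma adjusted p under 0.05). Dashed lines mark the shares over all genes (13.8% and 11.2%); the core target list reaches 92.9% to the left, whereas the cell cycle and phagocyte NADPH oxidase lists have no bar.

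Lipid and energy genes were counted by pathway, beside 11.2% risen and 13.8% fallen over all genes. Of 17 genes of cholesterol and fatty acid synthesis 7 fell (41.2%) and 0 rose, with a median of −0.44. Fasn, fatty acid synthase, fell by 1.48 ± 0.16 (adjusted p = 1.13e-05), the desaturase gene Scd2 by 1.44 ± 0.26 (adjusted p = 0.000842), the sterol demethylase gene Cyp51 by 0.89 ± 0.18 (adjusted p = 0.002) and Acaca, acetyl-CoA carboxylase, by 0.72 ± 0.16 (adjusted p = 0.00448). The Scd2 difference was −0.94 without KO arrays 3 and 4. With the mean of probe sets it was −0.86, and that of Cyp51 was −0.56. Of 16 genes of PPAR signalling and fatty acid oxidation 1 rose (6.25%) and 3 fell (18.8%), near the background. The rise was that of Acadm (0.24 ± 0.07). Falls included the lipid receptor gene Pparg (−0.79 ± 0.15, adjusted p = 0.00147) and the fatty acid carrier gene Fabp5 (−0.28 ± 0.06, adjusted p = 0.00387). Without KO arrays 1 and 2 Acadm no longer passed (adjusted p = 0.137), and neither did Fabp5 when its probe sets were averaged (adjusted p = 0.0522). Of 9 genes of LXR-driven lipid efflux, Apoe and Apoc1 rose (22.2%) and Nr1h3, which encodes LXRα, fell (11.1%). The Apoc1 difference of 1.89 ± 0.62 lost its call without WT array 2 or 4 or KO array 2, 3 or 4 (adjusted p up to 0.108). That of Nr1h3 (−0.47 ± 0.17) lost it without WT array 1, 3 or 4 or any 1 KO array (adjusted p up to 0.152). With KO arrays 3 and 4 both left out the adjusted p was 0.223 for Apoc1 and 0.247 for Nr1h3.

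Of 16 genes of glycolysis and the hypoxia response 3 rose (18.8%) and 2 fell (12.5%), against 11.2% and 13.8% of all genes. Vegfa, the vascular growth factor gene, read 7.94, 8.19, 8.14 and 7.97 in WT and 10.04, 10.07, 9.84 and 9.66 in KO, clearly apart (1.84 ± 0.20, adjusted p = 1.53e-05). Its second, dimmer probe set gave 0.45, and the mean of both was 1.14. Pkm, pyruvate kinase, fell by 0.55 ± 0.09 (adjusted p = 0.000346). Hif1a rose by 0.31 ± 0.09 (adjusted p = 0.0176), a call lost without WT array 1 or 4. Of its other probe sets 1 gave 0.29 and 2 dim ones −0.20 and −0.15. Of 22 respiratory chain subunits 4 fell (18.2%) and 0 rose, by 0.34 to 0.84, with Ndufa4 the largest fall (−0.84 ± 0.18, adjusted p = 0.00292). The call of Ndufv1 (adjusted p = 0.0499) was lost in 12 settings (adjusted p up to 0.642 over the 12), among them without WT array 3 or 4 or any 1 KO array. That of Ndufs1 was lost without KO arrays 1 and 2 (adjusted p = 0.0667). Of 27 proteasome subunits 4 fell (14.8%), all by under 0.5, near the background share. Psmb5, a catalytic subunit gene, fell by 0.45 ± 0.12 (adjusted p = 0.00984, and 0.0926 without KO arrays 1 and 2). The other calls were also lost without KO arrays 1 and 2. Psmd2 lost its call in 11 settings (adjusted p up to 0.365 over the 11), among them without WT array 1, 3 or 4 or KO array 1, 2 or 4. Psmc1 lost it in 8 (adjusted p up to 0.193 over the 8), among them without WT array 3 or 4 or KO array 1 or 2. Psma3 lost it in 4, and its dim second probe set gave 0.46.

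Of 17 heat shock and ER chaperone genes 4 rose (23.5%) and 1 fell (5.88%), against 11.2% and 13.8% of all genes. Hspa1b, an inducible Hsp70 gene, rose by 1.61 ± 0.31 (adjusted p = 0.00153) and Hspb1, a small heat shock protein gene, fell by 1.25 ± 0.19 (adjusted p = 0.000208). Hspa1b rose by 0.92 without KO arrays 1 and 2, and the second probe set of Hspb1 gave 0.06, so its mean was −0.60. The smaller rises of Pdia6 and Hsph1 lost their calls without KO arrays 1 and 2 or 3 and 4 (adjusted p up to 0.0789 and 0.144). Of 14 p53 targets 3 fell (21.4%, against 13.8% of all genes), with Phlda3 first (−1.19 ± 0.16, adjusted p = 0.000117). The fall of Zmat3 (−0.57) lost its call without KO arrays 3 and 4 (adjusted p = 0.154). Of 21 lysosome and autophagy genes 5 fell (23.8%) and 1 rose (4.76%), against 13.8% and 11.2% of all genes. The largest fall was that of the transcription factor gene Tfec (−0.84 ± 0.15, adjusted p = 0.000798). Of 15 immediate early genes 2 rose (13.3%) and 1 fell (6.67%), against 11.2% and 13.8% of all genes. Egr1 (0.78 ± 0.14, adjusted p = 0.00121) and Fosb (1.13 ± 0.21, adjusted p = 0.00111) rose and Fosl1 fell (−1.11 ± 0.22, adjusted p = 0.00177). Fosb and Fosl1 were dim, with means of 2.99 and 5.08 in WT and 4.11 and 3.97 in KO. The second probe set of Fosl1 gave −0.06, and the mean of both −0.58. Of 14 matrix proteases and inhibitors Mmp19 fell (−1.80 ± 0.21, adjusted p = 2.23e-05, and −2.88 by its other probe set) and Mmp9 rose (1.26 ± 0.38, adjusted p = 0.0234). The Mmp9 call was lost without WT array 1 or 2 or KO array 2, 3 or 4 (adjusted p up to 0.0696). With KO arrays 3 and 4 both left out its adjusted p was 0.17. Of 24 cell cycle genes and 6 phagocyte NADPH oxidase genes 0 rose and 0 fell, and their differences lay between −0.54 and 0.42 and between −0.35 and 0.15. Of 18 genes of the integrated stress response 1 fell, Slc7a11, which the core list also holds.

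Marker genes of other cells moved in both directions. S100a8, a calcium-binding protein gene of neutrophils and monocytes, read 11.89, 12.10, 11.92 and 11.81 in WT and 10.98, 11.11, 10.83 and 10.93 in KO (−0.97 ± 0.09, adjusted p = 3.77e-06). In all, 3 of 12 neutrophil and precursor markers fell (25%, against 13.8% of all genes). Of 10 fibroblast and stromal markers 5 fell (50%, against 13.8% of all genes). Postn, periostin, fell the most (−1.54 ± 0.27, adjusted p = 0.000702), from 7.55 ± 0.59 in WT (SD) to 6.01 ± 0.35 in KO (SD). Falls of Pdgfra, Dcn and Col1a2 started from low WT values (4.90, 4.50 and 4.67). That of Col1a2 lost its call in 7 settings (adjusted p up to 0.97). Of 6 endothelial markers 1 rose (16.7%) and 2 fell (33.3%), against 11.2% and 13.8% of all genes. The receptor gene Kdr rose by 0.88 ± 0.14 (adjusted p = 0.000441). Cdh5, the endothelial cadherin gene, fell by 0.79 ± 0.11 (adjusted p = 0.000129) from a low level of 4.56. Emcn fell by 0.86 (adjusted p = 0.00554) from a low level of 3.60, a call lost without KO arrays 1 and 2 (adjusted p = 0.0502).

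The same genotypes under RA839, on separate arrays, gave the second set of values of this contrast. Of the 428 genes other than Nfe2l2 that fell at least 2-fold in DMSO, 413 (96.5%) fell under RA839, where 15.8% of all genes did, and 0 rose. They make up 14.3% of the genes that fell under RA839. Of the 161 that rose at least 2-fold, 149 (92.5%) rose under RA839, where 14.6% of all genes did, and 0 fell. The test of the difference between the contrasts was past the threshold for 21 genes (0.115%). Of these 13 were among the 428, and 3 were named above. Gclc differed by −1.22 in DMSO and −2.43 under RA839 (adjusted p of the change in difference = 0.0237), Gss by −1.55 and −2.88 (adjusted p = 0.0331) and Ednrb by −5.56 and −7.81 (adjusted p = 0.0388). For Nqo1 the values were −4.83 and −5.06 (adjusted p = 1). Hmox1, which missed the test in DMSO, fell by 1.07 under RA839 (adjusted p = 0.0013). Keap1 fell by 0.51 there (adjusted p = 0.0014). Of the 15 largest rises 14 rose under RA839, and Thbs1 missed the test (1.29, adjusted p = 0.17).

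Keap1 siRNA in WT cells gives a contrast of the opposite kind, on arrays of another experiment that share no sample with the knockout comparison. The siRNAs lowered Keap1 by 2.03 (siKeap1-1, adjusted p = 5.2e-08) and 1.83 (siKeap1-2, adjusted p = 1.4e-07), and both contrasts share the siControl arrays. Of the 428 genes that fell at least 2-fold in KO, 206 (48.1%) rose with siKeap1-1, 167 (39.0%) with siKeap1-2 and 150 (35.0%) with both, where 8.67%, 6.32% and 4.12% of all genes did. Those 150 make up 20% of the 750 genes that rose with both siRNAs. Of the 428, 3 fell with both siRNAs, where 2.16% of all genes did: Myrf, Sgsh and Tarsl2, which are named after their values were seen. Of the 161 genes that rose at least 2-fold in KO, 41 (25.5%) fell with siKeap1-1, 38 (23.6%) with siKeap1-2 and 32 (19.9%) with both, where 6.39%, 4.89% and 2.16% of all genes did. Of the 161, 1 rose with both, Phlda1, also named after its values were seen. The median difference of the 428 genes was 0.46 with siKeap1-1 and 0.32 with siKeap1-2, and that of the 161 was −0.23 and −0.20, against 0.02 and 0.03 over all genes.

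Of the 28 core targets 19 rose with both siRNAs, and all 19 had fallen in KO. Nqo1 rose by 1.38 and 1.28, Gclm by 1.42 and 1.33, Gclc by 2.05 and 1.94, Slc7a11 by 1.25 and 1.43, and Me1 by 2.15 and 2.05. Gsta4, which read 5.77 to 6.86 in WT with DMSO, rose by 3.09 and 3.52. Srxn1 rose by 0.55 with siKeap1-2 (adjusted p = 0.00016) and missed the test with siKeap1-1 (0.04, adjusted p = 0.77). Hmox1 missed it with both (0.40 and 0.18). Of the 14 largest falls other than Nfe2l2, 11 rose with both siRNAs, with Il1f9 (3.37 and 3.66), Ednrb (3.18 and 3.31) and Lrp8 (2.36 and 2.35) the highest. The other 3 missed the test with both: Rbp4 (−0.34 and −0.07), Mpzl2 (0.61 and 0.36) and Atp8b1 (−0.04 and −0.35). Of the 15 largest rises 3 fell with both siRNAs, Slfn4 (−0.94 and −0.63), Lox (−1.97 and −1.29) and Apoe (−0.52 and −0.51). Rbm45 gave −0.02 and 0.05 and Arg1 −0.23 and −0.09, and both missed the test. Nfe2l2 itself fell by 0.48 and 0.32 with the siRNAs.

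**Figure D5:**
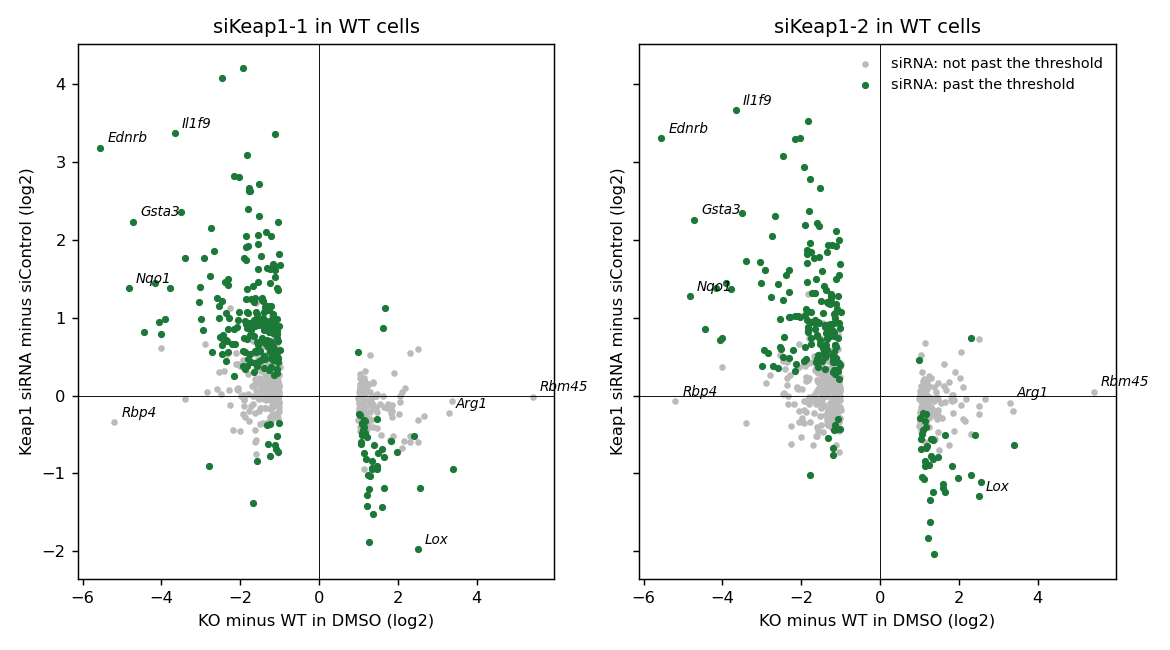
Each gene that changed at least 2-fold in KO, other than Nfe2l2, is a point at its difference KO minus WT in DMSO (log2, horizontal axis) and its difference Keap1 siRNA minus siControl in WT cells (log2, vertical axis), with siKeap1-1 in the left panel and siKeap1-2 in the right. Green points passed the test of the siRNA; 206 of 428 genes that fell in KO lie above 0 in green on the left and 167 on the right, whereas Rbp4 and Rbm45 lie near 0 in both.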

How the data were processed

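RNA was measured on 28 arrays, of which 8 enter this comparison. Per the submitters' processing notes the authors used RMA, which subtracts background, equalises the arrays and summarises the probes of a set, and they deposited its log2 values. Its version was not given in the sources used. RMA shrinks differences between dim probe sets. Of 45101 probe sets 34945 named 1 gene in the platform annotation and were used, and 34741 of these matched RefSeq; where several probe sets named a gene, the one that averaged highest across the 28 arrays stood for it, which left 18193 genes. limma 3.58.1 in R 4.3.3 fitted 1 coefficient per group to the 16 arrays of the compound experiment (lmFit, eBayes without trend, two-sided), and the 12 siRNA arrays in a fit of their own, since the experiments were normalized apart. The threshold was a Benjamini-Hochberg adjusted p under 0.05.

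Named genes were Nfe2l2, Keap1 and 7 known targets, the 15 largest rises and falls without overlap, up to 4 of each list past the threshold, all core target and glutathione genes, and the neighbours of Nfe2l2. The members and lists were chosen with earlier results of these data known. Marker sums are log2 of the summed linear values. Replicate numbers did not pair the genotypes: deviations of same-numbered arrays correlated between −0.29 and −0.01. The procedure was tested on simulated data. Alternatives covered the samples fitted, the prior, the probe set rule, normalization, array weights, thresholds, the replicate block and each array left out.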

Additional observations from a re-analysis of the deposited data

Results flagged for a closer look

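The genotype difference itself differed between DMSO and RA839, by an interaction term in limma, for 3 of the named genes. Gclc was lower in KO by 1.21 log2 units less in DMSO than under RA839 (adjusted p = 0.0237), Gss by 1.33 less (adjusted p = 0.0331) and Ednrb by 2.26 less (adjusted p = 0.0388).

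In 12 of the 346 groups of 4 arrays checked, 1 array stood apart from the other 3, where chance gives about 1 in 20. In WT these were Arg1 on array 3 (7.47, the others 4.33 to 4.86), Glrx on array 2 (11.14, the others 10.89), Cd80 on array 1 (9.16, the others 8.98 to 9.0), Cyp51 on array 3 (10.35, the others 10.75 to 10.83), Pparg on array 3 (10.37, the others 9.86 to 9.94) and Epor on array 2 (4.27, the others 4.95 to 5.03). In KO they were Tjp1 on array 1 (10.62, the others 11.43 to 11.51), Glrx on array 1 (11.09, the others 11.16 to 11.17), Ulk1 on array 3 (10.07, the others 9.78 to 9.82), Mmp9 on array 1 (9.80, the others 10.80 to 10.82), Fosb on array 2 (3.44, the others 4.27 to 4.40) and Ttc30a1 on array 1 (5.96, the others 5.52 to 5.55).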

How the results depend on the processing

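The count of 4561 changed genes was 2763 among the brighter genes alone, 2459 at an adjusted p under 0.01, 590 at 2-fold or more, 1197 when limma tested against 1.2-fold, and 2918 without KO arrays 3 and 4 (3358 without KO arrays 1 and 2). It was higher with all 28 arrays in 1 fit (5911), the probe set of largest interquartile range (5751), array weights (5707) and without array 2 of WT under RA839 (5670). The KO pairs and that RA839 array were left out after seeing the data. Leaving out each of the 8 DMSO arrays in turn gave 3577 to 4251. A replicate block gave 4879, but the numbers do not pair the genotypes, and same-numbered arrays correlated no better (−0.29 to −0.01) than others (−0.30 to 0.34). The genes at least 2-fold lower in KO and higher with both Keap1 siRNAs numbered 150, and 82 among the brighter genes. Of 151 named genes past the threshold 97 passed in every setting run for them (20 to 22 a gene). Over 3251 combinations of gene and setting 3021 kept direction and call, 225 lost the call and 5 changed sign: Psma3 (0.059 with the mean of probe sets, 0.463 without probe sets ending in _x_at, _s_at or _a_at and with the probe set of largest interquartile range), Hif1a (−0.15 with the latter) and Uty (0.075 with the latter). Dim probe sets and 4 arrays per group limit what can be detected.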

Other observations

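Some gene families without a list of their own stood out after the values were seen, and no test was made of them. Their counts include genes already given above, such as Slc7a11, Cyp1b1, Slfn4 and Inhba. Of 7 genes of the aryl hydrocarbon receptor pathway, which senses aromatic pollutants, 4 fell and 1 rose, against 13.8% and 11.2% of all genes. The rise, of Arnt (0.46), was lost in 9 settings (adjusted p up to 0.125 over the 9), among them without WT array 1, 3 or 4 or any 1 KO array. Ahr, the receptor gene, read 10.77, 10.93, 10.65 and 10.91 in WT and 8.42, 8.63, 8.91 and 9.0 in KO, a fall of 2.07 ± 0.17 (limma adjusted p = 5.54e-07). Its repressor gene Ahrr fell by 1.58 ± 0.27 (adjusted p = 0.000653) and its target Cyp1a1 by 1.39 ± 0.19 (adjusted p = 0.000126) from a low level, besides Cyp1b1. Ahr rose with both Keap1 siRNAs (0.88 and 1.02). Of 18 Serpinb genes, which encode intracellular protease inhibitors, 5 fell (27.8%, against 13.8% of all genes) and 0 rose, with Serpinb9b (−2.93 ± 0.30) and Serpinb1b (−2.54 ± 0.14) the largest falls. Both also rose with both siRNAs.

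Of 347 solute carrier genes 75 fell (21.6%) and 26 rose (7.49%), against 13.8% and 11.2% of all genes. Slc16a9, a monocarboxylate transporter, differed by −3.40 ± 0.16 (adjusted p = 2.12e-09) and by −4.72 under RA839, and the difference between these contrasts passed the test (adjusted p = 0.0388). Of 16 genes of bone morphogenetic protein and activin signalling 6 rose (37.5%, against 11.2% of all genes) and 0 fell. Of these calls Acvr1 was lost in 7 settings, among them without WT array 3 or 4 or KO array 3 or 4, Bmp2 in 6, among them without WT array 1, 2 or 4 or KO array 1 or 2, and Fstl3 without KO arrays 1 and 2 (adjusted p up to 0.184, 0.302 and 0.0617). Fst, follistatin, which binds activin, rose by 1.91 ± 0.18 (adjusted p = 2.99e-06) and the feedback gene Pmepa1 by 2.10 ± 0.21 (adjusted p = 6.34e-06), besides Inhba. Of 9 Schlafen genes 4 rose (44.4%, against 11.2% of all genes). Slfn1 lost the call in 10 settings, among them without any 1 WT array or KO array 1 or 2, and Slfn5 in 8, among them without WT array 1, 2 or 4 or KO array 1 or 2 (adjusted p up to 0.489 and 0.301 over those settings). Slfn10-ps lost it without KO arrays 3 and 4 (adjusted p = 0.0676).

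On all 8 arrays Xist was bright, between 11.57 and 11.84, and the Y-linked genes Eif2s3y and Kdm5d lay between 2.98 and 3.94. Uty, also Y-linked, was as dim (from 3.17 to 3.39 in WT, from 2.80 to 3.06 in KO) and passed the test (−0.37 ± 0.09, adjusted p = 0.00843). Nnt, which differs between C57BL/6 substrains, did not pass the test (0.44 ± 0.19, adjusted p = 0.108). It passed in 2 settings, all 28 arrays in 1 fit and the replicate block (adjusted p at most 0.0342).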
